A study of Mus musculus with 31 samples.

Results

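The cholesterol and fatty acid synthesis genes are 31 genes, 21 of a sterol branch and 10 of a fatty acid branch, taken from 39017 genes in the deposited count table. They were chosen by name and matched to the symbol in the first column of that table, where Msmo1 stands under its older symbol Sc4mol. All 31 passed the filter on low counts in every fit, with 74 to 40283 reads per gene and library. Bulk poly(A) RNA was sequenced from murine breast tumours grown orthotopically in syngeneic mice, and the series title frames the question as inhibition of respiratory complex I combined with Toll-like receptor activation. There were 31 libraries from 2 tumour models, titled 4T1 and MT, with 4 libraries in each of 8 groups except 4T1 phenformin, which had 3. The arms were poly I:C with phenformin (called combination), poly I:C with PBS (poly I:C), saline with phenformin (phenformin) and saline with PBS (control). Every library carries the genotype label WT.

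Poly I:C mimics viral double-stranded RNA and is sensed by Toll-like receptor 3. The biguanide phenformin blocks complex I of the respiratory chain. Doses, times, ages, sex and the number of animals behind a library are not given in the sources used here, so the p-values measure the spread between these libraries, which may be technical. The series' design ties MT tumours to FVB mice and 4T1 tumours to BALBc mice. The strain and cell line labels run the other way, with FVB and MT4788 on the libraries titled 4T1 and BALBc and 4T1-537 on those titled MT, so groups are called by their titles. The class II gene H2-Ea-ps, silent in FVB mice, had 214 to 970 CPM among 15 libraries whose title names 4T1 and 5.24 to 53.0 CPM among 16 whose title names MT. CPM (normalised counts scaled to library size) is the unit used throughout.

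Cholesterol is made from acetyl-CoA through the mevalonate pathway, which builds squalene, closes it to lanosterol and trims lanosterol to cholesterol. Fatty acids are made from acetyl-CoA by acetyl-CoA carboxylase and fatty acid synthase and are then elongated and desaturated. SREBP-2, encoded by Srebf2, mainly drives the sterol genes and SREBP-1, encoded by Srebf1, mainly the fatty acid genes, and INSIG1 holds both precursors in the endoplasmic reticulum when sterols are plentiful.

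Promoters of 24 of the 31 members were matched in RefSeq (GRCm38.p6), and those windows show a sequence feature that the choice of genes did not use. The NF-Y box, CCAAT on either strand, lay within 250 bases upstream of a start in 16 of 17 sterol genes (94.1%) and in 3 of 7 fatty acid genes (42.9%), against 37.5% of all 27025 genes in the table. Some genes have several starts, and counted by start the shares were 80.0%, 44.4% and 33.8%. Windows with exon sequence were counted too. In Msmo1, Idi1, Tm7sf2 and Dhcr7 a window with the box had all 150 bases nearest the start in annotated exon. The sterol response motif, TCACNCCAC on either strand, lay in 1 sterol gene (5.88%) and in 0 of 7 fatty acid genes, against 1.22% of all genes. The E-box CACGTG lay in 4 sterol genes (23.5%) and in 0 of 7 fatty acid genes, against 6.86% of all genes. A match is a description of letters and was not tested as a binding site. Fdft1, Fdps, Sqle, Stard4, Fads1, Scd1 and Scd2 were not matched. The windows below cover 150 bases upstream of a start on the gene's strand, 5′ to 3′, with NF-Y boxes (CCAAT, or ATTGG where it lies on the other strand) in capitals. They were picked after the values were seen, from windows that hold at least 1 of these motifs and little annotated exon sequence, taking first the members called in most comparisons. The Hmgcs1 window was added for its motif and has the sterol response motif in capitals too, on either strand.
Pmvk promoter, chr3:89454391-89454540, plus strand, GRCm38.p6: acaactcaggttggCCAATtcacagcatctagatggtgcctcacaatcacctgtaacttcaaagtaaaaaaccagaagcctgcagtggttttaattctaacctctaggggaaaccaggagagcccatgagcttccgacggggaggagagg
Mvd promoter, chr8:122443423-122443572, minus strand, GRCm38.p6: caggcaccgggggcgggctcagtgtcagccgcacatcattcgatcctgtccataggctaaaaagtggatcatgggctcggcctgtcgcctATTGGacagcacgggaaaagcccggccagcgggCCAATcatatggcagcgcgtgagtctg
Lss promoter, chr10:76531455-76531604, plus strand, GRCm38.p6: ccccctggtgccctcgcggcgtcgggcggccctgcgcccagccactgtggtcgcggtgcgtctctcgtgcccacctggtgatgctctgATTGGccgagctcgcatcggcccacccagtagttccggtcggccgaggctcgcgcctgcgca
Mvk promoter, chr5:114444119-114444268, plus strand, GRCm38.p6: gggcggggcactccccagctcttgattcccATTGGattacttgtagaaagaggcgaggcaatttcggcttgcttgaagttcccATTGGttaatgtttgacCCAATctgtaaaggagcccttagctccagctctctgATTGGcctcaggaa
Sc5d promoter, chr9:42264301-42264450, minus strand, GRCm38.p6: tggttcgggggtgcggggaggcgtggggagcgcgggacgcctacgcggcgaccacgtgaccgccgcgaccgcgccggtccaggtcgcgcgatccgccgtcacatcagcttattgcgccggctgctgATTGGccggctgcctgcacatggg
Ebp promoter, chrX:8193513-8193662, minus strand, GRCm38.p6: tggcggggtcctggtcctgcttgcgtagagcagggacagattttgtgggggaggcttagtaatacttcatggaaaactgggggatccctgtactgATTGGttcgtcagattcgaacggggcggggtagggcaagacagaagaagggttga
Hmgcs1 promoter, chr13:119690201-119690350, plus strand, GRCm38.p6: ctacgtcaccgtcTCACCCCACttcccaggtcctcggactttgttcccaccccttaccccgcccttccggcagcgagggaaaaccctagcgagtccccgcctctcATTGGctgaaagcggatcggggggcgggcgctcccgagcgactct
Fasn promoter, chr11:120824548-120824697, minus strand, GRCm38.p6: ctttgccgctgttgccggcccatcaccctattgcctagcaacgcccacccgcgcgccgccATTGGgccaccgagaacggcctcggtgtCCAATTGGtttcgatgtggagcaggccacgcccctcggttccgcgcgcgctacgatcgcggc
Srebf1 promoter, chr11:60210472-60210621, minus strand, GRCm38.p6: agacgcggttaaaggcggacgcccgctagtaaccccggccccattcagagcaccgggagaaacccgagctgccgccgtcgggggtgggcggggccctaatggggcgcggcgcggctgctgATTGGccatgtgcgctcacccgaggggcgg
The Srebf1 window lies before a start inside the gene, and the Sc5d window also holds the E-box, printed in lower case. The Fasn window holds overlapping NF-Y boxes on opposite strands.

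Total counts ran from 12160110 to 19849915 per library. The summed CPM of 6 luminal epithelial markers was 1397 to 3274 in 4T1 libraries and 448 to 2141 in MT libraries. MT libraries fell into a Sox10-high and a Sox10-low set. Sox10, a transcription factor of neural crest and some mammary cells, measured 33.5 to 218 CPM in MT phenformin replicates 1 to 3 and MT control replicates 1 to 3, and 0.671 to 3.06 CPM in the other 10 MT libraries. Krt5, a basal keratin, measured 21.4 to 37.5 CPM in 5 of those 6 Sox10-high libraries and 1611 CPM in the remaining one, phenformin replicate 3, against 330 to 2452 CPM in the Sox10-low libraries. In MT, control replicate 4 and phenformin replicate 4 therefore stood with the combination and poly I:C libraries. Skeletal muscle RNA (Acta1 above 10 CPM) was present in 5 of the 4T1 libraries, namely combination replicates 1 and 4, poly I:C replicates 2 and 3 and phenformin replicate 4.

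**Figure D1:**
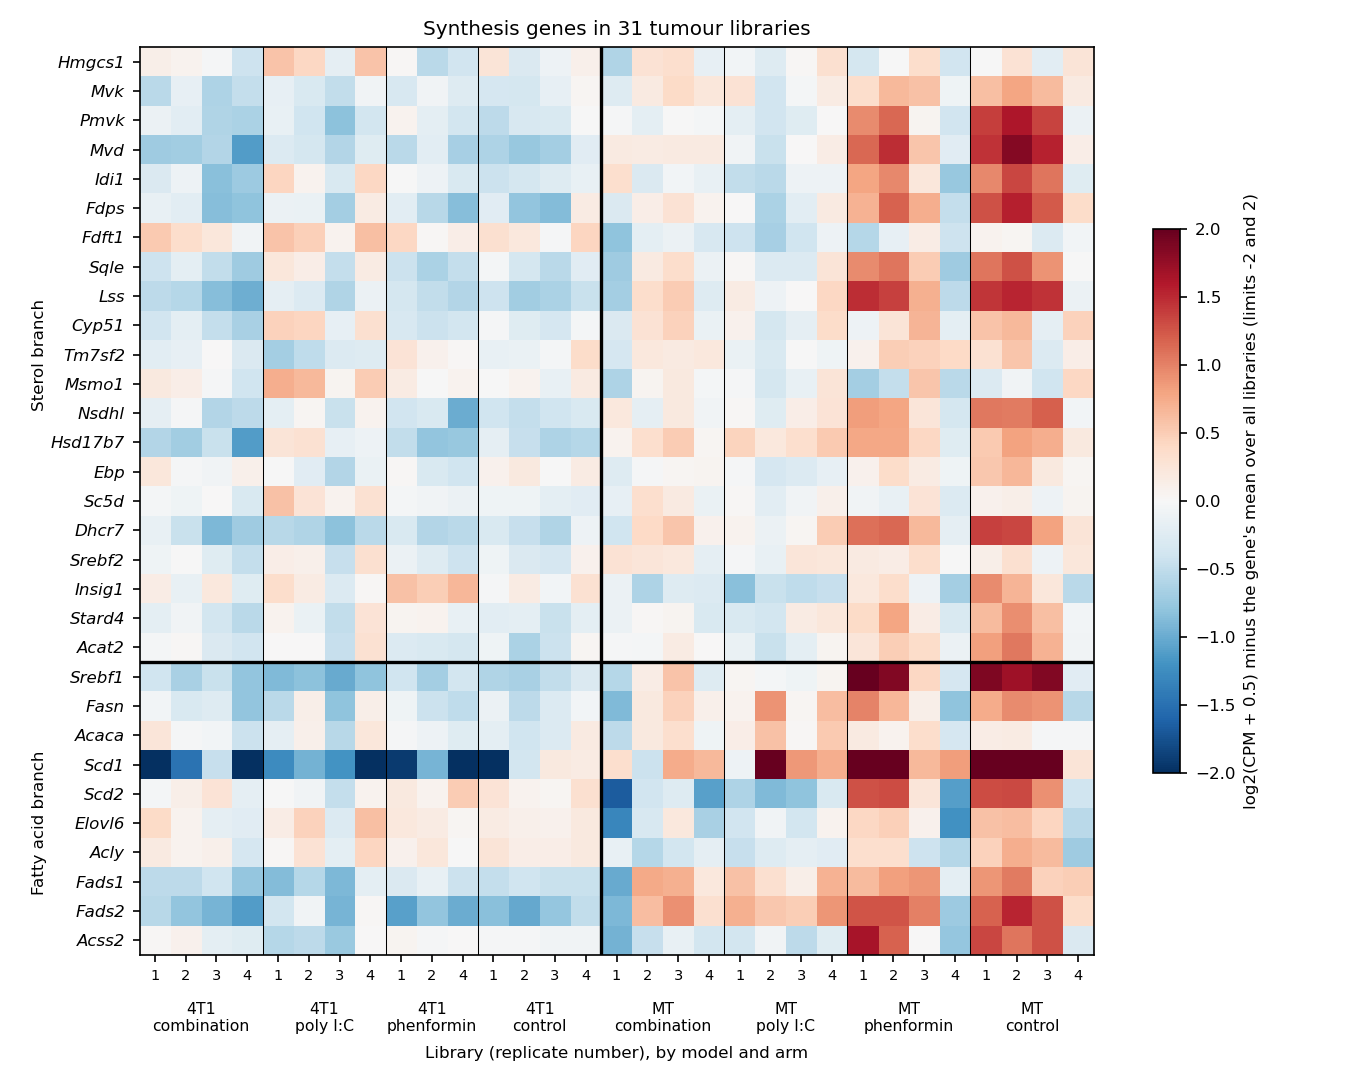
Heat map of the 31 synthesis genes (rows, sterol branch above the thick line and fatty acid branch below) in 31 libraries (columns, by model and arm). Colour is log2(CPM + 0.5) minus the gene's mean over all libraries, limited at -2 and 2; the red block at the right is MT phenformin replicates 1 and 2 and MT control replicates 1 to 3.

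In 4T1 tumours, poly I:C went with higher levels of Sc5d, Hsd17b7, Msmo1 and Cyp51, which act between lanosterol and cholesterol. They rose by 0.46 to 0.57 on the log2 scale over control, and 4 of 21 sterol genes were called higher and 0 lower. Across all 17445 genes tested 3.26% were called higher and 3.06% lower. The median log2 fold change of the sterol branch was 0.24, with 16 of 21 genes above 0, against 0.01 over all genes. No fatty acid gene was called by edgeR, with 3 of 10 at an unadjusted p under 0.05 and 1 called lower by DESeq2, and the median of that branch was -0.07. Over all genes 23.9% had an unadjusted p under 0.05, and DESeq2 called 1973.

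Sc5d (ENSMUSG00000032018, GRCm38 chromosome 9, 42251595 to 42264256) encodes lathosterol oxidase. It measured 77.0, 62.2, 53.5 and 63.0 CPM in poly I:C tumours and 47.96, 48.2, 44.8 and 43.5 CPM in control tumours. The groups did not overlap, and the log2 fold change was 0.49 ± 0.10 (SE; edgeR quasi-likelihood test, Benjamini-Hochberg adjusted p = 0.0141). Hsd17b7 (ENSMUSG00000026675, chromosome 1, 169949535 to 169969241) encodes a 3-keto reductase of the C4 demethylation complex. It measured 26.9, 28.1, 19.998 and 21.1 CPM in poly I:C tumours and 19.8, 16.2, 14.6 and 15.03 CPM in control tumours, again without overlap. Its log2 fold change was 0.57 ± 0.16 (edgeR adjusted p = 0.0471).

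Cyp51 (ENSMUSG00000001467, chromosome 5, 4081145 to 4104746), the lanosterol demethylase, measured 117, 115, 75.4 and 106 CPM in poly I:C tumours and 83.6, 71.9, 67.3 and 82.5 CPM in control tumours. Poly I:C replicate 3 lay within the control range, and the log2 fold change was 0.46 ± 0.13 (edgeR adjusted p = 0.0472). Msmo1 (ENSMUSG00000031604, chromosome 8, 64718139 to 64733792), the C4 methylsterol oxidase, measured 115, 109, 72.3 and 98.9 CPM in poly I:C tumours and 68.9, 72.5, 62.5 and 78.6 CPM in control tumours. Poly I:C replicate 3 again lay within the control range, and the log2 fold change was 0.50 ± 0.14 (edgeR adjusted p = 0.0488).

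Sc5d kept its call in all 8 fits that left out 1 library of these groups, Hsd17b7 in 3, and Cyp51 and Msmo1 in 1 each. The number of members called was 1 without control replicate 2, 3 or 4 or poly I:C replicate 1 or 2. It was 2 without control replicate 1, and dropping poly I:C replicate 4 gave 3 and dropping replicate 3 of that arm gave 6. Over all genes the number called in these 8 fits ran from 289 to 1986. Without the 5 libraries with skeletal muscle RNA 0 members were called by edgeR, with 14 of 21 sterol genes at an unadjusted p under 0.05 and a sterol median of 0.42. Without the 3 libraries with Igkc above 100 CPM 0 were called, with 5 sterol genes at that unadjusted p and a median of 0.28. The summed CPM of 8 macrophage markers was 1250 to 1953 in poly I:C tumours and 2910 to 4419 in control tumours, with 5 of 8 markers called lower. That of 7 fibroblast markers was 3640 to 9074 in poly I:C tumours and 2039 to 3558 in control tumours, with 3 of 7 called higher. Of 7 neutrophil markers 1 was called higher by edgeR and 4 by DESeq2. In bulk tumour RNA, fewer cells of a type and less RNA per cell cannot be told apart, and the part of these cell types in the sterol values was not tested.

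The other 17 sterol genes were not called by edgeR in that comparison. Hmgcs1, the HMG-CoA synthase, had a log2 fold change of 0.38 ± 0.18 and Idi1, the isopentenyl diphosphate isomerase, one of 0.51 ± 0.19 (edgeR adjusted p = 0.206 and 0.111). Sqle, the squalene epoxidase, had 0.34 ± 0.15 and Lss, the lanosterol synthase, 0.29 ± 0.13 (edgeR adjusted p = 0.19 and 0.185). Tm7sf2, a sterol C14 reductase, and Ebp, the sterol isomerase, which like the 4 called genes act after lanosterol, lay on the other side of 0, at -0.46 ± 0.16 and -0.31 ± 0.12 (edgeR adjusted p = 0.0926 and 0.14).

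Of the regulators Srebf2, Srebf1 and Insig1, edgeR called none for poly I:C over control in 4T1 tumours, and DESeq2 called Srebf1 lower. Srebf2 measured 106, 103, 69.7 and 119 CPM in poly I:C tumours and 90.7, 77.9, 75.9 and 101 CPM in control tumours, a log2 fold change of 0.22 ± 0.15 (edgeR adjusted p = 0.388). Srebf1 measured 46.3, 48.9, 42.6 and 49.2 CPM in poly I:C tumours and 56.9, 54.8, 61.1 and 70.5 CPM in control tumours. Its groups did not overlap, at a log2 fold change of -0.36 ± 0.11 (edgeR adjusted p = 0.0661; DESeq2 adjusted p = 0.031). Insig1 measured 65.1, 57.1, 41.8 and 51.5 CPM in poly I:C tumours and 49.9, 56.8, 49.0 and 62.5 CPM in control tumours, and its log2 fold change was 0.00 ± 0.13.

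Fatty acid genes spread in both directions under poly I:C in 4T1 tumours. Fads2, the delta-6 desaturase, measured 37.1, 45.7, 25.1 and 49.1 CPM in poly I:C tumours and 26.7, 23.3, 27.8 and 34.2 CPM in control tumours, with poly I:C replicate 3 inside the control range. Its log2 fold change was 0.51 ± 0.18 (edgeR adjusted p = 0.106). Acss2, the acetyl-CoA synthetase, had -0.37 ± 0.14 (edgeR adjusted p = 0.12), and Fasn, the fatty acid synthase, measured 188, 295, 155 and 296 CPM in poly I:C tumours and 251, 188, 225 and 261 CPM in control tumours.

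**Figure D2:**
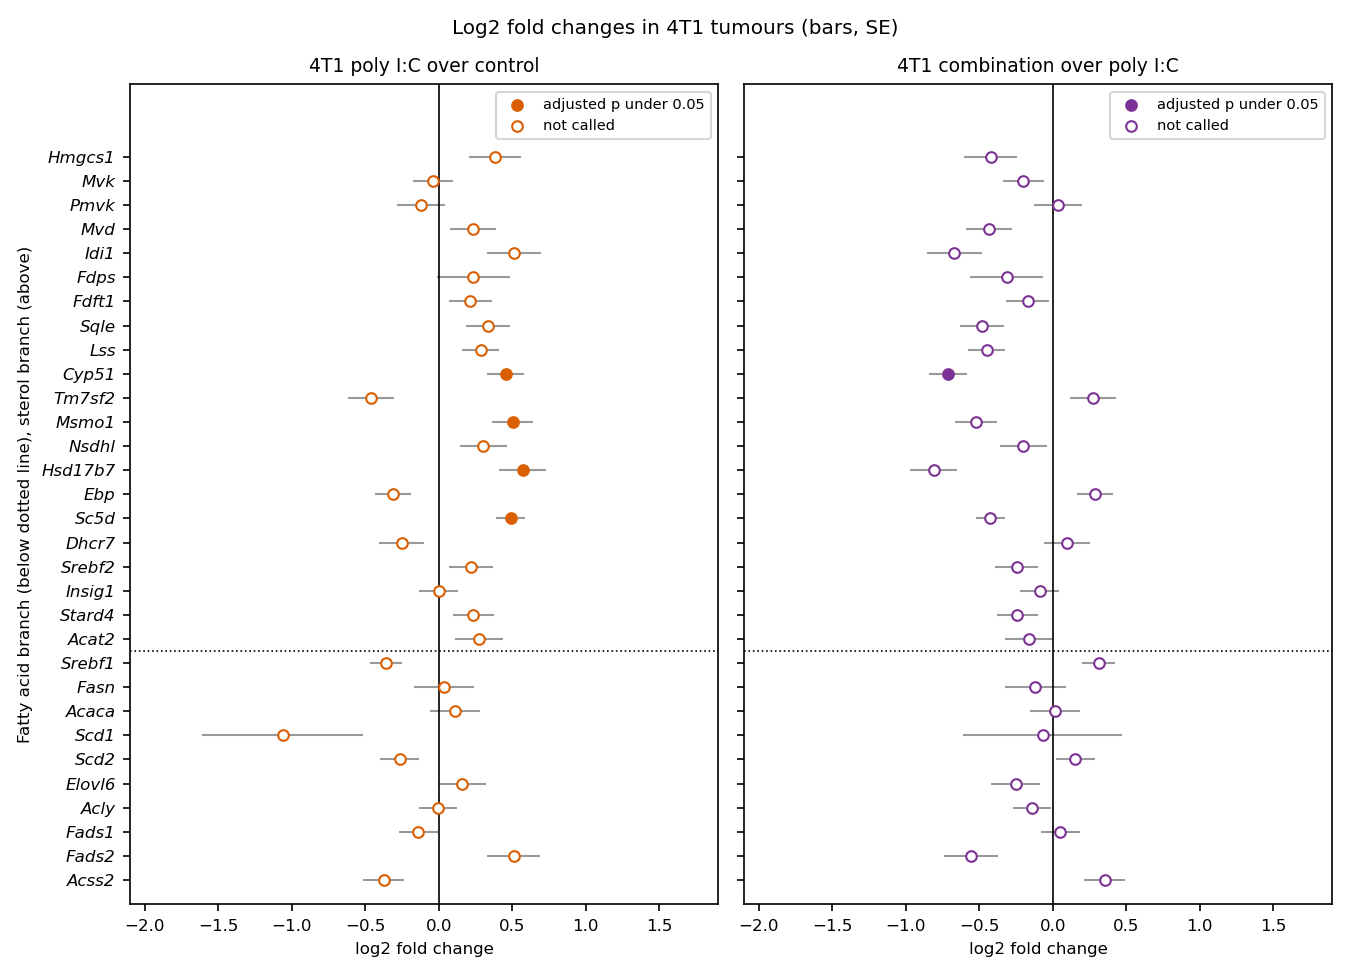
Log2 fold changes (x axis; points, fitted value; bars, SE) of the 31 members in 4T1 tumours, combination over poly I:C in the right panel and poly I:C over control in the left; filled points have an edgeR adjusted p under 0.05. Filled points are Cyp51 on the right and Cyp51, Msmo1, Hsd17b7 and Sc5d on the left.

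Phenformin given with poly I:C went with a lower level of Cyp51 in 4T1 tumours than poly I:C alone. By edgeR it was the 1 member called lower, and 0 were called higher, against 0.0974% of all genes called lower and 0.149% higher. By DESeq2 7 of 21 sterol genes and 1 of 10 fatty acid genes were called, all lower, against 947 of all 17445 genes called in either direction. Of the sterol branch 17 of 21 genes were below 0, with a median of -0.25 (all genes, -0.00), and the fatty acid median was -0.03. This comparison and poly I:C against control share the poly I:C libraries, so the same libraries enter both with opposite sign.

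Cyp51 measured 64.6, 73.7, 60.5 and 53.9 CPM in combination tumours and 117, 115, 75.4 and 106 CPM in poly I:C tumours. All 4 combination tumours lay below all 4 poly I:C tumours, and the log2 fold change was -0.71 ± 0.13 (edgeR adjusted p = 0.0437). Dropping poly I:C replicate 4 gave 4 called members, dropping replicate 3 of that arm gave 1, and dropping any other library of these groups gave 0. Over all genes the number called in these fits ran from 1 to 1412. Hsd17b7 measured 14.8, 13.8, 16.3 and 10.1 CPM in combination tumours and 26.9, 28.1, 19.998 and 21.1 CPM in poly I:C tumours, without overlap. Its log2 fold change was -0.81 ± 0.16 (edgeR adjusted p = 0.0509; DESeq2 adjusted p = 0.00042). Sc5d measured 49.9, 48.1, 51.4 and 41.5 CPM in combination tumours and 77.0, 62.2, 53.5 and 63.0 CPM in poly I:C tumours, at -0.43 ± 0.10 (edgeR adjusted p = 0.0573).

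In the fatty acid branch the smallest p-values of this comparison belonged to Fads2 and Srebf1. Neither was called by edgeR, and DESeq2 called Fads2 lower. Fads2 measured 32.6, 27.6, 25.2 and 21.9 CPM in combination tumours and 37.1, 45.7, 25.1 and 49.1 CPM in poly I:C tumours (log2 fold change -0.56 ± 0.18, edgeR adjusted p = 0.13; DESeq2 adjusted p = 0.0491). Srebf1 measured 65.1, 55.0, 63.2 and 49.7 CPM in combination tumours and 46.3, 48.9, 42.6 and 49.2 CPM in poly I:C tumours, without overlap (0.31 ± 0.11, edgeR adjusted p = 0.152). Macrophage markers summed to 1875 to 3065 CPM in combination tumours and 1250 to 1953 CPM in poly I:C tumours, which overlapped, with 0 of 8 called by edgeR and 4 called higher by DESeq2. Fibroblast markers summed to 2736 to 3501 CPM in combination tumours and 3640 to 9074 CPM in poly I:C tumours, without overlap. Of these 7, edgeR called 0, all 7 had an unadjusted p under 0.05 (6 lower, 1 higher), and DESeq2 called 6 lower. All 7 neutrophil markers were below 0, with 0 called by edgeR and 2 called lower by DESeq2. The part of these cell types in the members' values was not tested.

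No member was called by edgeR in the other 4T1 comparisons, where 0% of all genes were called as well. For phenformin against control 2 members, and for the combination against control 0 members, had an unadjusted p under 0.05, and DESeq2 called 0 in both. For the combination against phenformin 2 members had such a p and DESeq2 called 1, Insig1. For the interaction of both agents 10 sterol genes and 0 fatty acid genes had such a p, 9 of the 10 negative, and DESeq2 called 0. Over all genes 10% had such a p for phenformin over control and 11.9% for the combination over control. The share was 12.5% for the combination over phenformin, where DESeq2 called 180 genes, and 9.33% for the interaction. The smallest interaction p in the sterol branch was that of Sc5d, at -0.50 ± 0.14 on the log2 scale (edgeR adjusted p = 0.505), and 18 of 21 sterol genes were below 0.

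Insig1 was the member with the smallest p in both 4T1 comparisons against or with phenformin alone. It measured 56.4, 45.6, 58.6 and 42.7 CPM in combination tumours, 76.5, 71.1 and 80.6 CPM in phenformin tumours and 49.9, 56.8, 49.0 and 62.5 CPM in control tumours. The 3 phenformin tumours lay above all tumours of the other 3 arms. The log2 fold change of phenformin over control was 0.48 ± 0.14 (edgeR adjusted p = 0.262), and that of the combination over phenformin was -0.56 ± 0.14 (edgeR adjusted p = 0.204; DESeq2 adjusted p = 0.03). Ebp measured 48.5, 40.5, 39.5 and 44.4 CPM in combination tumours, 41.7, 33.2 and 31.2 CPM in phenformin tumours and 43.6, 47.2, 41.0 and 46.1 CPM in control tumours (phenformin over control -0.33 ± 0.13, edgeR adjusted p = 0.418). Cyp51 and Mvk, the mevalonate kinase, had the smallest sterol p-values for the combination over control, at -0.26 ± 0.13 and -0.24 ± 0.14 (edgeR adjusted p = 0.448 and 0.534). Mvk measured 8.80, 11.6, 8.26 and 9.22 CPM in combination tumours and 10.2, 10.1, 11.5 and 13.4 CPM in control tumours, with overlap.

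The fatty acid genes with the smallest p-values in these comparisons were Scd1, Fads1, Acly and Scd2, and their groups overlapped. Fads1, the delta-5 desaturase, measured 101, 101, 109 and 84.9 CPM in combination tumours, 118, 131 and 107 CPM in phenformin tumours and 103, 110.2, 106 and 106 CPM in control tumours. Its log2 fold change was 0.15 ± 0.14 for phenformin over control and -0.24 ± 0.14 for the combination over phenformin (edgeR adjusted p = 0.771 and 0.496). Acly, the ATP citrate lyase, measured 259, 240.5, 245 and 181 CPM in combination tumours and 274, 250.1, 249.8 and 261 CPM in control tumours (-0.15 ± 0.13, edgeR adjusted p = 0.721). Scd2, a stearoyl-CoA desaturase, measured 545, 611, 678 and 497 CPM in combination tumours and 641, 586 and 798 CPM in phenformin tumours (-0.20 ± 0.14, edgeR adjusted p = 0.593). In the interaction, Ebp had 0.62 ± 0.18, Srebf1 0.29 ± 0.16 and Scd1 1.22 ± 0.80 (edgeR adjusted p = 0.505, 0.598 and 0.647).

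Scd1, the stearoyl-CoA desaturase, was the most variable member among 4T1 tumours. It measured 64.8, 125, 253 and 69.6 CPM in combination tumours, 146, 181, 153 and 53.9 CPM in poly I:C tumours, 92.6, 182 and 74.5 CPM in phenformin tumours, and 66.4, 272, 399 and 393 CPM in control tumours. All arms overlapped. The log2 fold change over control was -1.13 ± 0.55 for the combination, -1.06 ± 0.55 for poly I:C and -1.29 ± 0.60 for phenformin, none of which was called (edgeR). The summed CPM of 10 adipocyte markers was 83.8, 171, 415 and 159 in combination tumours, 91.4, 435, 482 and 78.6 in poly I:C tumours, 109.8, 184 and 102 in phenformin tumours and 115, 488, 556 and 457 in control tumours. With that sum as a covariate the poly I:C value of Scd1 was -0.26 (edgeR adjusted p = 0.74). Scd2, its neighbour 87.6 kb away on chromosome 19, measured 404 to 591 CPM in poly I:C tumours and 576 to 701 CPM in control tumours. The ratio of Scd2 to Scd1 CPM ran from 1.44 to 11.0 over the 4T1 libraries and from 0.140 to 1.65 over the MT libraries.

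**Figure D3:**
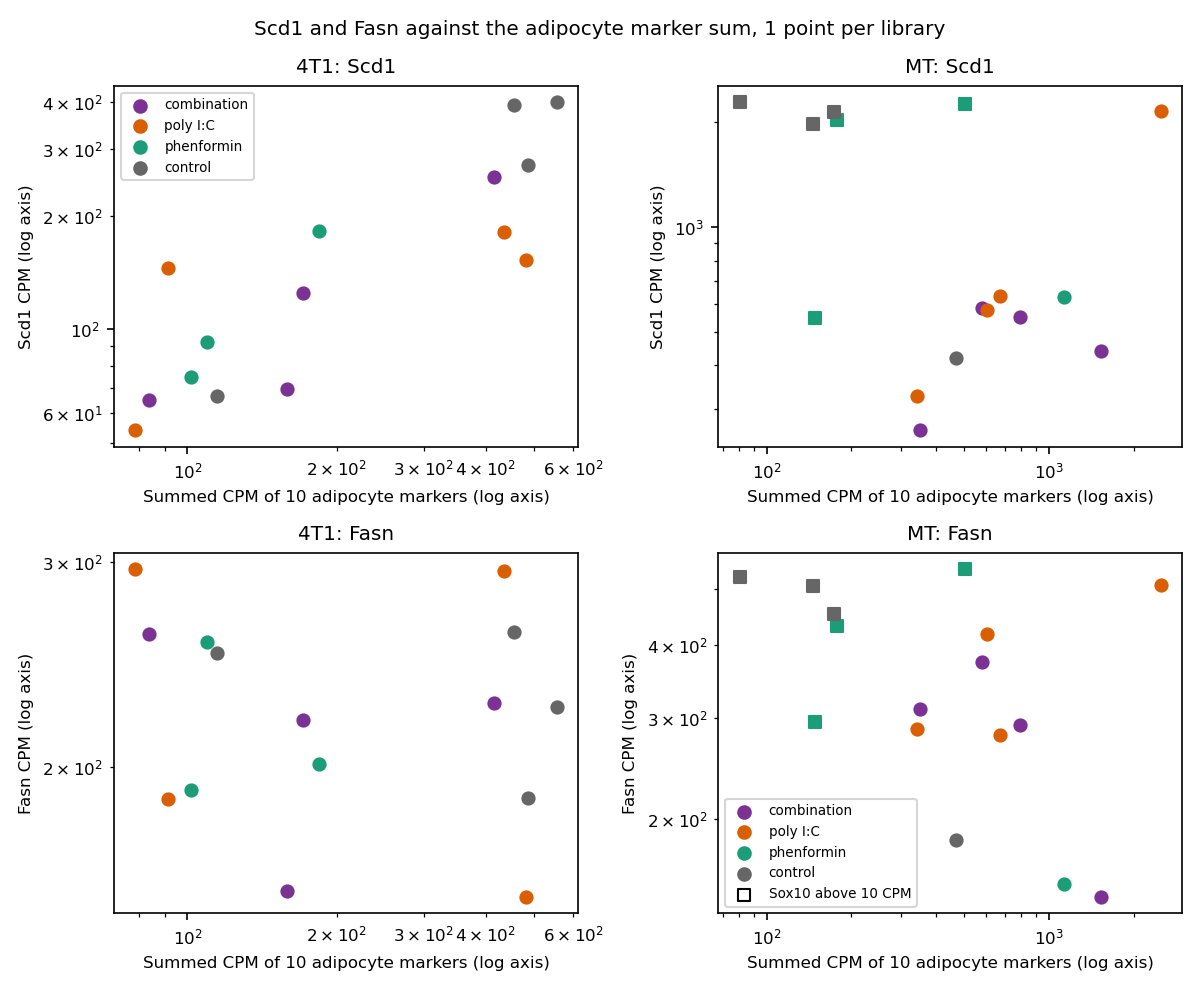
Scd1 (upper row) and Fasn (lower row) CPM against the summed CPM of 10 adipocyte markers, both on log axes, with 1 point per library, 4T1 left and MT right; colours mark the arms and squares the MT libraries with Sox10 above 10 CPM. MT poly I:C replicate 2 stands at the right edge with 2163 CPM of Scd1, and 5 of the 6 squares lie at or above 1973 CPM of Scd1, the remaining one, phenformin replicate 3, at 547 CPM.

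In MT tumours, poly I:C went with lower levels of 8 of 21 sterol genes and of 1 fatty acid gene, Scd2. No sterol gene was called higher, and the fatty acid count was 1 of 10 lower and 0 higher, against 11.1% of all 17857 genes tested called lower and 8.52% called higher. The fatty acid share is near that background. The branch medians were -0.61 (sterol, 20 of 21 below 0) and -0.57 (fatty acid, 9 of 10 below 0), against 0.01 over all genes. Without the 6 Sox10-high libraries the fatty acid median was 0.36 and the sterol median -0.10. Those libraries include 3 of the 4 controls and 0 of the poly I:C tumours.

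Mvd (ENSMUSG00000006517, chromosome 8, 122433601 to 122443422), the mevalonate diphosphate decarboxylase, measured 12.3, 9.29, 12.9 and 14.3 CPM in poly I:C tumours and 35.9, 47.0, 38.4 and 14.2 CPM in control tumours. Control replicate 4, the Sox10-low control, lay within the poly I:C range. The log2 fold change was -1.46 ± 0.35 (edgeR adjusted p = 0.013). Pmvk (ENSMUSG00000027952, chromosome 3, 89454541 to 89469013), the phosphomevalonate kinase, measured 24.1, 21.1, 23.2 and 27.7 CPM in poly I:C tumours and 72.9, 85.7, 71.5 and 25.4 CPM in control tumours, with control replicate 4 again inside the poly I:C range. Its log2 fold change was -1.40 ± 0.35 (edgeR adjusted p = 0.0145).

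Fdps, the farnesyl diphosphate synthase, measured 45.4, 28.9, 38.8 and 51.3 CPM in poly I:C tumours and 110.2, 134, 107 and 58.1 CPM in control tumours. Its groups did not overlap, and control replicate 4 was nearest to the poly I:C tumours (log2 fold change -1.30 ± 0.31, edgeR adjusted p = 0.0117). In the annotation 26.7% of the exon bases of Fdps overlap another gene on the same strand, so its counts are less certain. Acat2, a cytosolic thiolase, measured 36.8, 29.7, 35.2 and 42.0 CPM in poly I:C tumours and 72.1, 84.8, 65.9 and 38.5 CPM in control tumours (-0.85 ± 0.20, edgeR adjusted p = 0.0113).

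Ebp measured 40.5, 32.5, 34.1 and 36.7 CPM in poly I:C tumours and 60.2, 65.4, 47.3 and 42.2 CPM in control tumours, without overlap (-0.57 ± 0.14, edgeR adjusted p = 0.0166). Insig1 measured 28.2, 37.2, 35.6 and 36.8 CPM in poly I:C tumours and 98.1, 81.8, 59.2 and 34.6 CPM in control tumours (-0.97 ± 0.28, edgeR adjusted p = 0.0255). Control replicate 4 was again the lowest control in both. Idi1 and Nsdhl, a sterol dehydrogenase, were also called lower, at -1.20 ± 0.36 and -0.82 ± 0.27 (edgeR adjusted p = 0.0319 and 0.0498).

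In the fatty acid branch, Scd2 measured 364, 303, 321 and 455 CPM in poly I:C tumours and 1379.7, 1395, 1063 and 425 CPM in control tumours (-1.55 ± 0.48, edgeR adjusted p = 0.0367). Srebf1 measured 88.7, 83.6, 81.1 and 89.5 CPM in poly I:C tumours and 315, 280.3, 312 and 73.3 CPM in control tumours (-1.50 ± 0.52, edgeR adjusted p = 0.0564). Control replicate 4 lay within the poly I:C range of Scd2 and below that of Srebf1. Srebf2 measured 94.0, 86.5, 113 and 112 CPM in poly I:C tumours and 104, 119, 89.3 and 112 CPM in control tumours, and its log2 fold change was -0.05 ± 0.13.

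**Figure D4:**
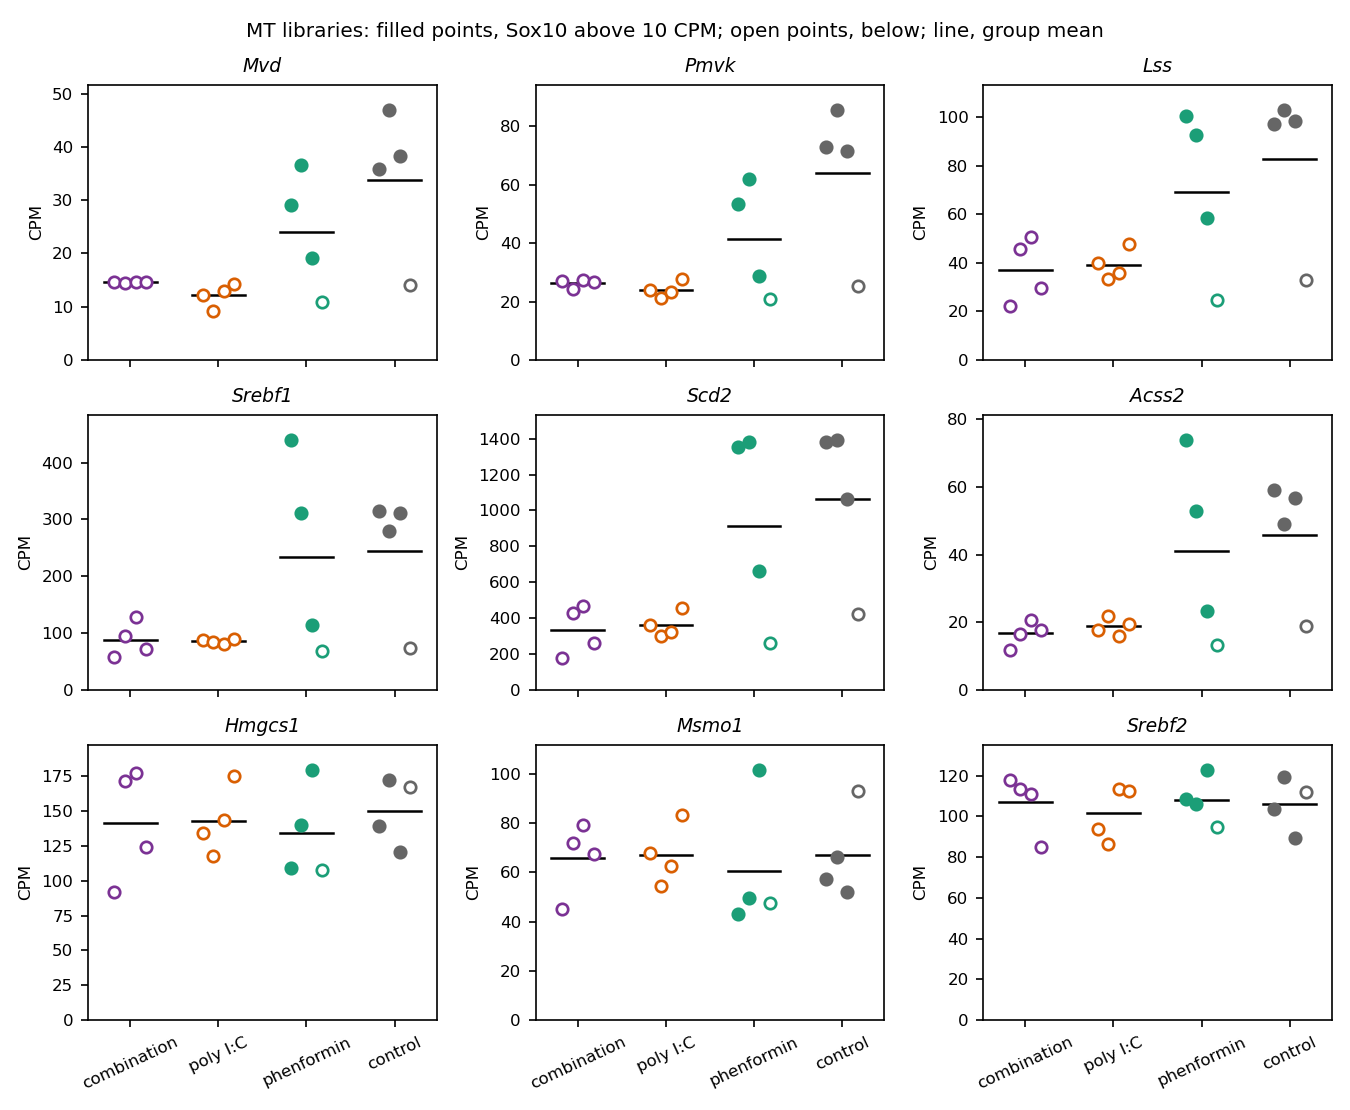
CPM (y axis) of 9 members in the 16 MT libraries by arm, with 1 point per library and a line at the group mean; filled points are libraries with Sox10 above 10 CPM. For Mvd, Pmvk, Lss, Srebf1, Scd2 and Acss2 the open control point lies far below the filled control points, while Hmgcs1 and Srebf2 show no such split. For Msmo1 the open control point lies above the filled ones, at 92.8 CPM.

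Leaving out the 6 Sox10-high libraries left 4 poly I:C libraries against 1 control library, which is assumed to vary as the other groups do. In that fit 16 of 21 sterol genes were below 0, with a median of -0.10. Of the fatty acid genes 8 of 10 were above 0, with a median of 0.36. With 1 control library, the absence of calls in that fit cannot show that a difference is absent. Adjusting for log2(Krt5/Sox10) instead, 0 members were called by edgeR, with medians of -0.12 (sterol) and 0.39 (fatty acid). Both settings were chosen after seeing the data.

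Over the 8 fits that left out 1 library, Fdps and Acat2 kept their calls in 8 and Pmvk and Mvd in 7, losing it without control replicate 2. Ebp kept its call in 4, Insig1 in 2, and Idi1, Nsdhl and Scd2 in 1 each. The number of members called was 17 without control replicate 4, 6 without control replicate 3, 5 without poly I:C replicate 1 or 4, 4 without control replicate 1 or poly I:C replicate 2 or 3, and 2 without control replicate 2. Over all genes the number called in these 8 fits varied widely as well, from 1512 to 6256. Macrophage markers summed to 1958 to 2501 CPM in poly I:C tumours and 583 to 762 CPM in control tumours, with 8 of 8 called higher, and adipocyte markers to 340 to 2501 CPM in poly I:C tumours and 80.3 to 468 CPM in control tumours. By edgeR 5 of 7 neutrophil, 4 of 4 endothelial and 3 of 7 fibroblast markers were called higher as well. The sum of the 7 neutrophil markers nevertheless had the lower median in poly I:C tumours, 256 CPM (121 to 377). In control tumours its median was 939 CPM (19.5 to 2466), so the ranges overlapped. With the adipocyte sum as a covariate 0 members were called (edgeR), with 2 at an unadjusted p under 0.05. The medians were then -0.14 (sterol) and -0.11 (fatty acid). The 7 markers of sebocytes (sebaceous gland cells) summed to 127 to 191 CPM in poly I:C tumours. In control tumours they summed to 39.0 to 158 CPM, highest in control replicate 4. The part of macrophages, neutrophils, endothelial cells, fibroblasts and sebocytes in these values was not tested.

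**Figure D5:**
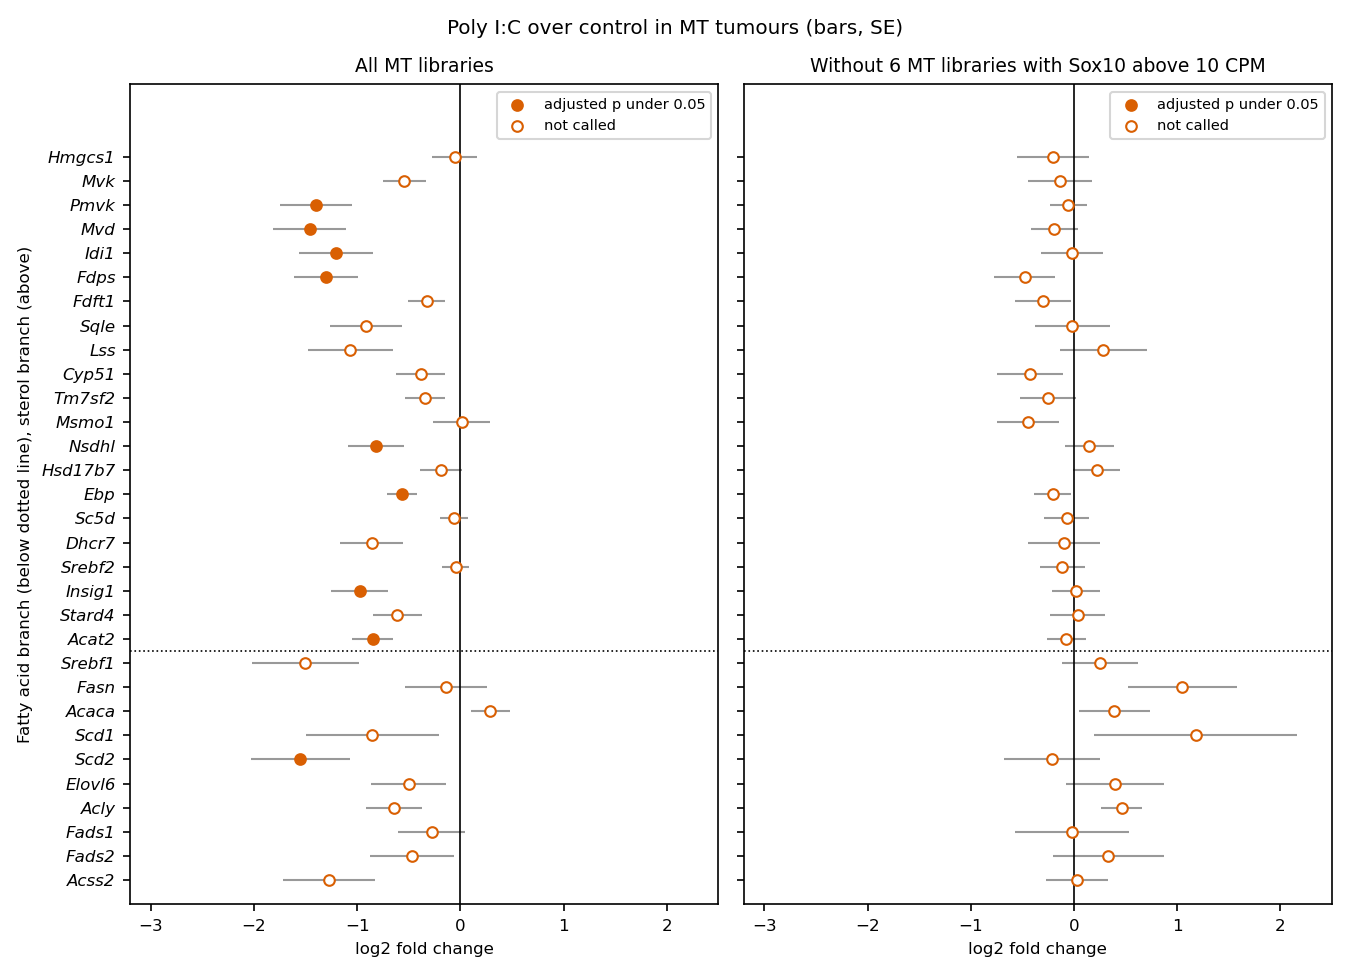
Log2 fold changes of poly I:C over control in MT tumours (x axis; points, fitted value; bars, SE) for the 31 members, with all libraries on the left and without the 6 libraries with Sox10 above 10 CPM on the right; filled points have an edgeR adjusted p under 0.05. There are 9 filled points on the left, all below 0, and 0 on the right, where the control arm is 1 library.

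In the MT combination Pmvk and Fdps were lower than in control. By edgeR they were the 2 members called lower and 0 were called higher, against 3.33% of all genes called lower and 2.81% higher, and the medians were -0.65 (sterol) and -0.76 (fatty acid). Macrophage markers summed to 1409 to 2654 CPM in combination tumours and 583 to 762 CPM in control tumours, with 7 of 8 called higher by edgeR. Of 7 neutrophil markers 6 were called higher, although their sum, 173 to 720.4 CPM in combination tumours and 19.5 to 2466 CPM in control tumours, overlapped. Of 4 endothelial markers 1 was called higher, and the part of these cell types was not tested. Pmvk measured 27.1, 24.1, 27.4 and 26.7 CPM in combination tumours and 72.9, 85.7, 71.5 and 25.4 CPM in control tumours (-1.27 ± 0.35, edgeR adjusted p = 0.0463). Fdps measured 36.8, 49.6, 55.1 and 47.6 CPM in combination tumours and 110.2, 134, 107 and 58.1 CPM in control tumours (-1.11 ± 0.31, edgeR adjusted p = 0.0487). All 4 combination tumours of Fdps lay below all controls, and control replicate 4 lay within the combination range of Pmvk.

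In the fatty acid branch of that comparison Scd2 measured 177, 428, 467 and 265 CPM in combination tumours, against 1379.7, 1395, 1063 and 425 CPM in control tumours (-1.67 ± 0.48, edgeR adjusted p = 0.0538). Acss2 measured 11.8, 16.7, 20.8 and 17.9 CPM in combination tumours and 59.1, 49.0, 56.6 and 18.8 CPM in control tumours (-1.45 ± 0.45, edgeR adjusted p = 0.0636). By DESeq2 11 members were called lower, against 2969 of all 17857 genes called in either direction. The number called by edgeR was 17 without control replicate 4 and 0 without any other library of these groups. Over all genes the number called in these fits ran from 19 to 5375. Without the Sox10-high libraries, where the control arm was 1 library, the medians were -3.4e-05 (sterol) and 0.10 (fatty acid).

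No member was called by edgeR in the other MT comparisons, in which 0% of all genes were called for phenformin over control, for the combination over poly I:C and for the interaction, and 0.106% for the combination over phenformin. At an unadjusted p under 0.05 there were 0 members for phenformin over control, 0 for the combination over poly I:C, 5 for the combination over phenformin and 1 for the interaction, and DESeq2 called 0 in each. Over all genes the shares at that unadjusted p were 6.07%, 6.03%, 13.2% and 9.91% in the same order. Phenformin tumours spanned both Sox10 sets. Lss measured 100.5, 92.6, 58.6 and 24.5 CPM in phenformin tumours and 97.1, 103, 98.3 and 32.8 CPM in control tumours, and replicate 4 was the lowest in both arms. Acat2 had the smallest sterol p for phenformin over control (-0.41 ± 0.20, edgeR adjusted p = 0.813) and Acly the smallest fatty acid p (-0.39 ± 0.27, edgeR adjusted p = 0.843). Scd2 had the smallest p for the combination over phenformin, at 177, 428, 467 and 265 CPM in combination tumours and 1354, 1379, 666 and 260.1 CPM in phenformin tumours (-1.46 ± 0.48, edgeR adjusted p = 0.268). Acss2, Srebf1, Scd1, Lss and Mvd came next by p in that comparison, at -1.29 ± 0.45, -1.40 ± 0.52, -1.57 ± 0.66, -0.90 ± 0.42 and -0.72 ± 0.35 (edgeR adjusted p = 0.281, 0.302, 0.339, 0.374 and 0.396). Mvd measured 14.6, 14.5, 14.7 and 14.7 CPM in combination tumours and 29.2, 36.6, 19.1 and 10.9 CPM in phenformin tumours. Acss2 measured 11.8, 16.7, 20.8 and 17.9 CPM in combination tumours and 73.9, 52.97, 23.4 and 13.3 CPM in phenformin tumours.

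Other members with the smallest p-values in MT comparisons without calls overlapped between arms. Acat2 measured 40.000, 39.3, 45.4 and 40.7 CPM in combination tumours and 48.3, 57.1, 52.3 and 37.2 CPM in phenformin tumours, and its interaction was 0.60 ± 0.28 (edgeR adjusted p = 0.5). Acly measured 206, 153, 177 and 202 CPM in combination tumours, 165, 191, 201 and 195 CPM in poly I:C tumours, 289, 288, 171 and 153 CPM in phenformin tumours and 313, 379, 353 and 139 CPM in control tumours. Elovl6, a fatty acid elongase, measured 96.4, 100.3, 76.2 and 30.7 CPM in phenformin tumours and 108, 110.1, 97.2 and 49.4 CPM in control tumours. In both genes replicate 4 was the lowest of the phenformin and of the control tumours, the Sox10-low library of each arm. Tm7sf2 measured 5.73, 8.58, 8.42 and 8.55 CPM in combination tumours and 6.67, 5.89, 7.34 and 6.92 CPM in poly I:C tumours (0.21 ± 0.20, edgeR adjusted p = 0.894). Acaca, the acetyl-CoA carboxylase, measured 39.1, 64.9, 71.2 and 53.4 CPM in combination tumours and 62.4, 85.5, 57.5 and 81.8 CPM in poly I:C tumours (-0.34 ± 0.19, edgeR adjusted p = 0.817). Scd1 measured 441, 259, 586 and 549.96 CPM in combination tumours and 327, 2163, 634 and 578 CPM in poly I:C tumours, of which replicate 2 stood far above the others (-1.03 ± 0.65, edgeR adjusted p = 0.835).

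Between the models, most synthesis genes were lower in untreated 4T1 than in untreated MT tumours. Of the sterol genes 13 of 21 were called lower and 0 higher, and of the fatty acid genes 6 of 10 lower, against 25.2% of all 18956 genes tested called lower and 26.7% higher. The medians were -0.84 (sterol) and -0.94 (fatty acid), against -0.00 over all genes. The MT controls again include both Sox10 sets. Of the marker lists, 8 of 8 macrophage and 6 of 7 fibroblast markers were called higher, and 3 of 4 basal epithelial and 6 of 8 cell cycle markers lower, in 4T1 control tumours, and their part was not tested. The 7 sebocyte markers summed to 2.55 to 3.60 CPM in 4T1 control tumours and 39.0 to 158 CPM in MT control tumours, and their part was not tested either. Without the Sox10-high libraries 5 members were called in place of 19 (Mvd, Hsd17b7 and Fads2 lower, Insig1 and Acly higher), with medians of -0.27 and 0.06, and the MT control arm was 1 library.

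Mvd measured 8.17, 7.43, 7.81 and 10.9 CPM in 4T1 control tumours and 35.9, 47.0, 38.4 and 14.2 CPM in MT control tumours, without overlap (-1.98 ± 0.29, edgeR adjusted p = 4.08e-06). Hsd17b7 measured 19.8, 16.2, 14.6 and 15.03 CPM in 4T1 control tumours and 32.6, 39.8, 37.4 and 25.8 CPM in MT control tumours (-1.05 ± 0.19, edgeR adjusted p = 6.78e-05). Fads2 measured 26.7, 23.3, 27.8 and 34.2 CPM in 4T1 control tumours and 109.6, 139.96, 117 and 62.0 CPM in MT control tumours (-1.94 ± 0.34, edgeR adjusted p = 4.4e-05). These 3 genes did not overlap between models, also against the Sox10-low control, and they were called in every alternative run for this comparison, including the fit without the Sox10-high libraries.

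Nsdhl, Dhcr7 (the 7-dehydrocholesterol reductase), Lss and Pmvk had log2 differences of -1.30 ± 0.24, -1.38 ± 0.26, -1.77 ± 0.33 and -1.49 ± 0.29 between the control tumours of the models. All were called by edgeR with all libraries (adjusted p = 7.16e-05, 7.77e-05, 8.36e-05 and 0.000116), and none without the Sox10-high libraries. Nsdhl measured 24.8, 23.6, 24.8 and 26.5 CPM in 4T1 control tumours and 68.7, 68.1, 76.5 and 31.6 CPM in MT control tumours. Dhcr7 measured 27.3, 24.2, 22.1 and 31.3 CPM in 4T1 control tumours and 87.3, 85.3, 59.1 and 40.4 CPM in MT control tumours. Among these 4 genes only Pmvk overlapped between the models, where it measured 19.03, 22.003, 22.3 and 27.5 CPM in 4T1 control tumours. Srebf1 measured 56.9, 54.8, 61.1 and 70.5 CPM in 4T1 control tumours and 315, 280.3, 312 and 73.3 CPM in MT control tumours (-2.01 ± 0.40, edgeR adjusted p = 0.000188). The largest difference in size was that of Scd1, at 66.4, 272, 399 and 393 CPM in 4T1 control tumours and 2141, 2283, 1973 and 419 CPM in MT control tumours (-2.59 ± 0.66, edgeR adjusted p = 0.002). The Sox10-low control was the lowest MT control for both genes, and without the Sox10-high libraries neither was called. Fads1, Acss2 and Fasn had -1.19 ± 0.26, -1.03 ± 0.35 and -0.85 ± 0.34 (edgeR adjusted p = 0.000491, 0.0145 and 0.0366). Fads1 measured 268, 297, 199 and 203 CPM in MT control tumours, all above the 4T1 control tumours, while Acss2 and Fasn overlapped.

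Averaged over the 4 arms, 15 of 21 sterol genes were called lower and 2 higher in 4T1 than in MT tumours, and 7 of 10 fatty acid genes lower, against 35.7% of all genes called lower and 35.3% higher. Without the Sox10-high libraries the medians were -0.14 (sterol, 15 of 21 below 0) and -0.10 (fatty acid, 6 of 10 below 0). The 4 fatty acid genes above 0 were then Scd2, Elovl6, Acly and Acss2, at 0.80, 0.71, 0.56 and 0.31. Of these, Acss2 was called lower with all libraries, so its direction changed. Of the sterol genes 6 of 21 were above 0, with Insig1 and Fdft1 highest, at 0.70 and 0.57. In that fit the MT control and MT phenformin arms were 1 library each. The genes higher in 4T1 tumours were Fdft1, the squalene synthase, at 0.54 ± 0.09, and Insig1, at 0.31 ± 0.11 (edgeR adjusted p = 3.62e-06 and 0.0204). The Fdft1 call held in all 9 other settings, apart from those leaving out 1 library, and the Insig1 call in 3 of 9. Insig1 was not called by DESeq2 (adjusted p = 0.0558), with DESeq2 size factors, without a filter, with the CPM filter, without the Igkc libraries or with the adipocyte covariate, nor without 4T1 poly I:C replicate 2 or MT combination replicate 1. Of the fatty acid genes called lower, Acss2 kept its call in 8 and Acaca in 16 of the 31 fits that left out 1 library. Srebf1, Fasn, Scd1, Fads1 and Fads2 kept theirs in all 31. Fdft1 averaged 70.4 ± 12.1 CPM in 4T1 combination tumours and 45.9 ± 8.96 CPM in MT combination tumours (SD, n = 4 each). Srebf2 differed by -0.28 ± 0.08 (edgeR adjusted p = 0.00213), and it was the member whose group means differed least, by 1.35 times between the highest and the lowest of the 8 groups. Scd1 differed most, by 14.6 times. The members with the smallest p-values differed as follows. Hsd17b7 ran from 10.1 to 28.1 CPM with a median of 15.8 CPM over the 15 4T1 libraries and from 19.1 to 39.8 CPM with a median of 30.4 CPM over the 16 MT libraries (-0.88 ± 0.10, edgeR adjusted p = 1.49e-08). Dhcr7 ran from 17.7 to 31.3 CPM with a median of 22.9 CPM in 4T1 and from 25.5 to 87.3 CPM with a median of 46.1 CPM in MT libraries (-1.04 ± 0.13, edgeR adjusted p = 1.04e-07). Mvk ran from 8.26 to 13.4 CPM with a median of 10.4 CPM in 4T1 and from 9.81 to 22.8 CPM with a median of 15.6 CPM in MT libraries (-0.58 ± 0.09, edgeR adjusted p = 4.32e-06). The ranges of all 3 overlapped. Fads2 ran from 21.9 to 49.1 CPM with a median of 27.6 CPM in 4T1 and from 25.5 to 139.96 CPM with a median of 84.05 CPM in MT libraries (-1.50 ± 0.17, edgeR adjusted p = 2.81e-08), and Srebf1 from 42.6 to 70.5 CPM with a median of 55.05 CPM in 4T1 and from 58.05 to 440.4 CPM with a median of 92.3 CPM in MT libraries (-1.35 ± 0.20, edgeR adjusted p = 1.88e-06).

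The response to poly I:C differed between the models for 9 sterol genes. The difference, 4T1 log2 fold change minus MT log2 fold change, was positive and called for 9 of 21 sterol genes and 0 of 10 fatty acid genes, against 5.7% of all genes with a positive and 5.42% with a negative call. Its median was 0.84 over the sterol genes and 0.64 over the fatty acid genes (all genes, 0.01). By gene it was 1.69 ± 0.40 for Mvd, 1.71 ± 0.42 for Idi1, 1.53 ± 0.42 for Fdps, 1.27 ± 0.40 for Pmvk and 1.25 ± 0.40 for Sqle (edgeR adjusted p = 0.00901, 0.0111, 0.02, 0.0416 and 0.0444). It was 1.11 ± 0.27 for Acat2, 1.11 ± 0.34 for Nsdhl, 0.97 ± 0.32 for Insig1 and 0.55 ± 0.17 for Sc5d (edgeR adjusted p = 0.00942, 0.0329, 0.0484 and 0.0396). Of these, Sc5d was called higher within 4T1 tumours, 7 were called lower within MT tumours, and Sqle was called in neither. Idi1 measured 18.8, 14.5, 11.1 and 18.6 CPM in 4T1 poly I:C tumours and 10.2, 10.7, 11.5 and 12.4 CPM in 4T1 control tumours, against 9.72, 9.35, 12.9 and 12.8 CPM in MT poly I:C tumours and 27.4, 35.5, 29.6 and 11.6 CPM in MT control tumours. Acat2 measured 40.8, 40.8, 29.4 and 50.4 CPM in 4T1 poly I:C tumours and 38.3, 25.8, 30.1 and 41.4 CPM in 4T1 control tumours, with overlap. Mvd measured 10.5, 9.98, 8.43 and 10.8 CPM in 4T1 poly I:C tumours, and Nsdhl 28.8, 33.8, 23.96 and 34.7 CPM, against 24.8, 23.6, 24.8 and 26.5 CPM in 4T1 control tumours.

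Mvd, Idi1 and Acat2 kept this call in all 16 fits that left out 1 library. The number of members called was 16 without MT control replicate 4, and 3 without 4T1 control replicate 3, MT control replicate 2 or MT poly I:C replicate 2. It was 4 without 4T1 control replicate 2, 4T1 poly I:C replicate 2 or MT control replicate 1, and 5 without 4T1 control replicate 1, 4T1 poly I:C replicate 1 or 4 or MT poly I:C replicate 3. Over all genes the number called in these 16 fits ran from 1199 to 4438. Without the Sox10-high MT libraries 0 were called by edgeR, with 3 sterol genes and 1 fatty acid gene at an unadjusted p under 0.05 and a sterol median of 0.32. The difference in poly I:C response was negative and called for 8 of 8 macrophage and 3 of 4 endothelial markers, and their part was not tested. For phenformin added to poly I:C, 0 members differed between the models by edgeR (0% of all genes), with 4 sterol genes at an unadjusted p under 0.05 and 0 by DESeq2. Over all genes 8.36% had such an unadjusted p.

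Levels were compared between genes per kilobase of annotated exon. In 4T1 control tumours Scd2 was highest, at 116 ± 11.7 CPM per kb (SD, n = 4), followed by Scd1 at 57.8 ± 31.8, Acly at 49.0 ± 2.12 and Hmgcs1 at 30.7 ± 5.12 CPM per kb. The intervals of Scd1 and Acly overlapped. In MT control tumours Scd1 was highest, at 348 ± 177 CPM per kb, followed by Scd2 at 195 ± 83.0 and Acly at 56.1 ± 20.5 CPM per kb (SD, n = 4), with overlapping spreads for Scd1 and Scd2. Tm7sf2 was lowest in both, at 1.71 ± 0.33 CPM per kb in 4T1 control tumours and 1.95 ± 0.47 CPM per kb in MT control tumours.

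Genes that export, store or oxidise cholesterol were counted as a separate list of 15. In 4T1 tumours poly I:C went with lower Apoe, an apolipoprotein abundant in macrophages, and lower Cyp27a1, the sterol 27-hydroxylase (2 of 15 lower and 0 higher, against 3.06% of all genes lower and 3.26% higher). Apoe measured 709, 781, 897 and 895 CPM in poly I:C tumours and 1463, 2227, 2497 and 1851 CPM in control tumours, without overlap (-1.27 ± 0.19, edgeR adjusted p = 0.00538). In MT tumours 8 of 15 were called higher and 1 lower for poly I:C over control, against 8.52% of all genes higher and 11.1% lower. The smallest p-values were those of the exporter Abca1, the sterol acyltransferase Soat1 and the ester hydrolase Nceh1 at 1.85 ± 0.30, 0.81 ± 0.14 and 0.94 ± 0.17 (edgeR adjusted p = 0.00209, 0.00268 and 0.00336). For the MT combination over control 5 of 15 were higher and 0 lower, against 2.81% and 3.33% of all genes. The difference in the poly I:C response, 4T1 minus MT, was called negative for 6 of 15, against 5.42% of all genes. Macrophage marker sums, given above, were lower with poly I:C in 4T1 tumours and higher in MT tumours, Apoe itself is on that marker list, and their part was not tested.

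Of 21 other sterol and isoprenoid genes edgeR called 0 in every comparison within a model (20 were tested in MT). DESeq2 called 2 for 4T1 poly I:C over control, 3 for the 4T1 combination over poly I:C, 1 for MT poly I:C over control and 2 for the MT combination over control. Over all genes it called 1973, 947, 4845 and 2969 in these comparisons, of 17445 tested in 4T1 and 17857 in MT. Of the other fatty acid and triglyceride genes, poly I:C in 4T1 tumours gave 1 of 25 higher, the malic enzyme Me1 (0.44 ± 0.12, edgeR adjusted p = 0.0401), and 1 lower, the acyltransferase Agpat2 (-0.45 ± 0.08, edgeR adjusted p = 0.0096), against 3.26% of all genes higher and 3.06% lower. Poly I:C in MT tumours gave 1 higher, the acyltransferase Dgat2 (1.75 ± 0.57, edgeR adjusted p = 0.0456). It also gave 3 lower, the citrate carrier Slc25a1, the acetoacetyl-CoA synthetase Aacs and the acyl-CoA synthetase Acsl4 (-0.69 ± 0.15, -1.22 ± 0.35 and -1.97 ± 0.61, edgeR adjusted p = 0.00743, 0.0282 and 0.0364). Over all genes 8.52% were higher and 11.1% lower in that comparison, so in both models the share of these 25 genes called lay near or below the background.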

How the data were processed

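RNA from mouse tumours was measured in 31 libraries. Where the text counts tumours of an arm, it counts libraries. Per the labels' protocols the libraries were strand-specific TruSeq poly(A) libraries, and per the submitters' processing notes reads were trimmed with Trimmomatic 0.32.48, aligned to mm10/GRCm38 with STAR 2.3.0 and assigned to genes with featureCounts 1.4.4. The authors deposited raw read counts per gene. The annotation release and the strand setting are not given in the sources used here. All columns of the table were used.

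Counts were filtered per fit with filterByExpr (minimum count 10, minimum total 15), scaled by TMM and tested with edgeR 4.0.16 in R 4.3.3 (quasi-likelihood F-test, limma 3.58.1 beneath it, Benjamini-Hochberg adjustment over all genes tested, calls at 0.05), in 1 fit per model (17445 genes in 4T1, 17857 in MT) and 1 over all 8 groups (18956 genes). SE is the log2 fold change divided by the square root of F. CPM were scaled by TMM over all 31 libraries, so values within a model can differ slightly from its fit. DESeq2 1.42.0 was an alternative. No replicates differed by as little as counting noise (lowest chi-square per degree of freedom 8.94). The fits were tested on simulated data.

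The members, the other gene lists and the marker lists were chosen with earlier results of these data known. Values are given for members called in a comparison (smallest p first, up to 6 per branch), for the 2 with the smallest p where a branch had no call, and for Srebf1, Srebf2 and Insig1. The settings that leave out libraries by Acta1, Igkc or Sox10 and those with a covariate were chosen after seeing the data. Depth limits lowly counted members most, and Tm7sf2 had as few as 74 reads in a library. Promoters come from RefSeq GRCm38.p6.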

Additional observations from a re-analysis of the deposited data

Results flagged for a closer look

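Within groups of 4 libraries, the gap between an extreme library and its nearest neighbour was compared with the group's range by Dixon's test in 217 gene and group combinations, and 8 stood out. Chance alone marks about 1 in 20 groups, and 8 of 217 is a smaller share than that. The flags as a set therefore do not exceed chance, and the values are given as description. Of these, 3 belong to MT control replicate 4. Lss measured 32.8 CPM there and 97.1 to 103 CPM in the other controls. Srebf1 measured 73.3 CPM there and 280.3 to 315 CPM in the others. Scd1 measured 419 CPM there and 1973 to 2283 CPM in the others. That library had 1.302 CPM of Sox10, against 173 to 218 CPM in the other controls.

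The other extreme libraries came from 5 groups. Scd1 measured 2163 CPM in MT poly I:C replicate 2, against 327 to 634 CPM in the others of that arm. Msmo1 measured 102 CPM in MT phenformin replicate 3, against 43.1 to 49.4 CPM. Tm7sf2 measured 5.73 CPM in MT combination replicate 1, against 8.42 to 8.58 CPM. Sqle measured 65.3 CPM in 4T1 poly I:C replicate 3, against 99.97 to 107 CPM, and Stard4, a sterol transport protein, measured 42.8 CPM in 4T1 control replicate 3, against 50.4 to 51.2 CPM.

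The poly I:C response differed between the models, 4T1 minus MT on the log2 scale and tested as an interaction in edgeR, by 1.69 for Mvd, 1.71 for Idi1, 1.53 for Fdps, 1.27 for Pmvk, 1.25 for Sqle, 1.11 for Acat2, 1.11 for Nsdhl, 0.97 for Insig1 and 0.55 for Sc5d. The Sox10-high MT libraries include controls and no poly I:C tumours. Without them, with 1 MT control library left, the values were 0.40, 0.51, 0.68, -0.09, 0.32, 0.32, 0.13, -0.05 and 0.53 in the same order.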

How the results depend on the processing

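Of 1808 recomputed values of named members 1479 kept direction and side of the threshold, 318 fell short of it and 11 changed sign. The number of members called was, with all libraries, 4 for poly I:C and 1 for the combination over poly I:C in 4T1, 9 for poly I:C and 2 for the combination over control in MT, and 9 for the difference in poly I:C response. DESeq2 gave 8 for the 4T1 combination over poly I:C, 1 for the 4T1 combination over phenformin, 15 for MT poly I:C and 11 for the MT combination. Over all genes DESeq2 called 947 and 180 in those 4T1 comparisons and 4845 and 2969 in those MT comparisons. DESeq2 size factors in edgeR gave 2 for the 4T1 combination over poly I:C and 1 for the MT combination. Without a filter the counts were 1 and 2 in 4T1, 0 for the MT combination and 4 for the response difference, and with at least 1 CPM in 4 libraries 3 for the 4T1 combination over poly I:C. With only the groups compared they were 1 and 0 in 4T1 and 0 for the MT combination.

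Without the Acta1 libraries both 4T1 counts were 0 and the response difference 5; without the Igkc libraries 0, 0 and 4. The adipocyte covariate gave 1 for 4T1 poly I:C and 0 for both MT comparisons and the response difference. Without the Sox10-high libraries the counts were 0 for both MT comparisons and the response difference and 5 for the control tumours of the models, and with the Krt5 to Sox10 ratio 0 for both MT comparisons. The following changed sign. Without the Sox10-high libraries Nsdhl had 0.15 and Insig1 0.022 for MT poly I:C, Pmvk 0.075 for the MT combination, Fasn 0.33 and Acss2 0.26 between control tumours, Idi1 0.14 and Acss2 0.31 over the arms, and Pmvk -0.095 and Insig1 -0.047 for the response difference. With the ratio covariate Idi1 had 0.029 and Nsdhl 0.12 for MT poly I:C. The cause was not tested.

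Leaving out 1 library at a time gave 1 to 6 and 0 to 4 calls in 4T1, 2 to 17 and 0 to 17 in MT, 16 to 23 between control tumours, 22 to 26 over the arms, 3 to 16 for the response difference and 0 in the other comparisons. Over all genes the calls ran from 289 to 1986 and 1 to 1412 in 4T1, and 1512 to 6256 and 19 to 5375 in MT. They ran from 8852 to 10018 between control tumours, 13151 to 13530 over the arms and 1199 to 4438 for the response difference. Same-number correlations of deviations ran from -0.51 to 0.20 in 4T1 (median -0.06) and from -0.79 to 0.77 in MT (median 0.10). Other-number correlations ran from -0.38 to 0.67 in 4T1 (median 0.05) and from -0.85 to 0.78 in MT (median 0.003). These ranges overlap widely, so they show no clear pairing by replicate number and cannot exclude it. With a replicate block the counts were 3, 0, 7, 0, 18, 23 and 6 in the order of the counts from leaving out 1 library.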
